A study of Homo sapiens with 14 samples.

Results

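KMT2D peaks were examined around 4 genes of the Fanconi anemia (FA) pathway, ATR, FANCM, REV3L and TOP3A. A peak was taken as a member when its summit lay within 50 kb of one of the gene bodies. The rule found 9 of the 13808 peaks of the list. None lay near ATR, 1 lay near FANCM, 1 near REV3L and 7 near TOP3A. The cells were SCC23, an established line of head and neck squamous cell carcinoma (HNSCC), of wild-type KMT2D genotype (KMT2D-WT), labelled as a low glucose condition and, by the study's methods, kept without glucose for 6 hours. Chromatin was precipitated with an antibody to KMT2D and sequenced (ChIP-seq). This was 1 library without a replicate, and each peak carries counting error only. The other 13 labelled samples, an input and histone ChIPs from KMT2D-WT cells and from KMT2D-KO cells made with Cas9, were not analysed here. All 14 samples carry the low glucose label, and the library used here is the 1 labelled with the KMT2D antibody, so no comparison of occupancy with glucose-fed or KMT2D-KO cells is made.

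The FA pathway repairs crosslinks that join both strands of DNA. ATR is the kinase that senses stalled replication forks and activates the pathway. FANCM is a DNA translocase that brings the FA core complex to the lesion. REV3L is the catalytic subunit of polymerase zeta, which copies past damaged bases, and TOP3A is the topoisomerase that works with the BLM helicase to separate joined DNA molecules. KMT2D methylates lysine 4 of histone H3, mostly at enhancers and also at some promoters. The study asked whether KMT2D sits at the promoters and enhancers of these genes when glycolysis is limited. It reported strong KMT2D peaks around the starts of ATR, FANCM, REV3L and TOP3A in glucose-deprived cells. By quantitative PCR after ChIP it also found KMT2D at the promoters of each of them, with less in KMT2D-KO cells. Those PCR assays were not analysed here. The study also described strong KMT2D peaks at distal enhancers of FANCM and REV3L.

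The reference promoters of the 4 genes are shown because the position of the peaks relative to these starts is the question asked of the loci. They come from RefSeq (GRCh38.p14), whereas the peaks are in hg19 coordinates, so no base of them was matched to a peak. Each runs 5′ to 3′ on the gene's own strand and ends at the base before the transcription start, or up to 13 bases earlier where an annotated exon reached further. Capitals mark the motifs found among those searched.
ATR, chr3:142578734-142578983, minus strand: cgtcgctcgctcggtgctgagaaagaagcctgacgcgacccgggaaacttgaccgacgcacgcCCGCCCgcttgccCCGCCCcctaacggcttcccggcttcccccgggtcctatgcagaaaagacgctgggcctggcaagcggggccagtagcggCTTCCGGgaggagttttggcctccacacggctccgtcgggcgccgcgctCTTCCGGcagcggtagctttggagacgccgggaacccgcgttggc
FANCM, chr14:45135680-45135929, plus strand: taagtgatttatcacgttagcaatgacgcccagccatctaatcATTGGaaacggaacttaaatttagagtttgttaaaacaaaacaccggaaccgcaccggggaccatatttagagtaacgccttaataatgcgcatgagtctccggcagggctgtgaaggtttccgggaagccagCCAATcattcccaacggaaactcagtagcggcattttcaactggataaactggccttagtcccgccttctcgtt
REV3L, chr6:111483716-111483961, minus strand: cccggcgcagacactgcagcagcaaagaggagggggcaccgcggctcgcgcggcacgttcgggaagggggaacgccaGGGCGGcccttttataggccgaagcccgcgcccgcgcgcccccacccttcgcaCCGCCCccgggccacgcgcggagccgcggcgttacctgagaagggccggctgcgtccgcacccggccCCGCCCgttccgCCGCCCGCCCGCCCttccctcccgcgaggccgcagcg
TOP3A, chr17:18315008-18315244, minus strand: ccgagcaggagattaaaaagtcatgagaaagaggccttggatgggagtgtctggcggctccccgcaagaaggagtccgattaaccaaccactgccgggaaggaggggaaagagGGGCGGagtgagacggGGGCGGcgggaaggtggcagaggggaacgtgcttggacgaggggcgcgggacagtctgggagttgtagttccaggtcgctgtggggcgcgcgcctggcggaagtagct
The ATR stretch held 2 GC boxes (GGGCGG on either strand), letters found in 42.6% of the 35116 RefSeq promoter windows of 250 bases. It also held 2 matches to the ETS motif (CCGGAAG), which occurs in 8.52% of windows. The FANCM stretch held 2 matches to the NF-Y motif (CCAAT), which occurs in 32.0%, and no GC box. REV3L held 6 GC boxes, 3 of which overlap in a single run, and TOP3A held 2. Neither strand of these stretches held the palindrome searched for NRF1, present in 1.03% of windows, or the letters for AP-1 (TGACTCA), present in 4.2%. The same was true of CRE (TGACGTCA, 1.65%), the E-box (CACGTG, 6.34%) and both E2F forms (TTTGGCGC, 0.55%, and TTTCCCGC, 1.39%). The REV3L window was the richest of these in G and C, with 78.4% and 40 CpG dinucleotides, more than in 97.8% of windows. FANCM was the poorest, with 46.4% and 14 CpG, against medians of 58.0% and 11 over all windows. ATR had 69.6% with 32 CpG and TOP3A had 64.0% with 19.

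**Figure D1:**
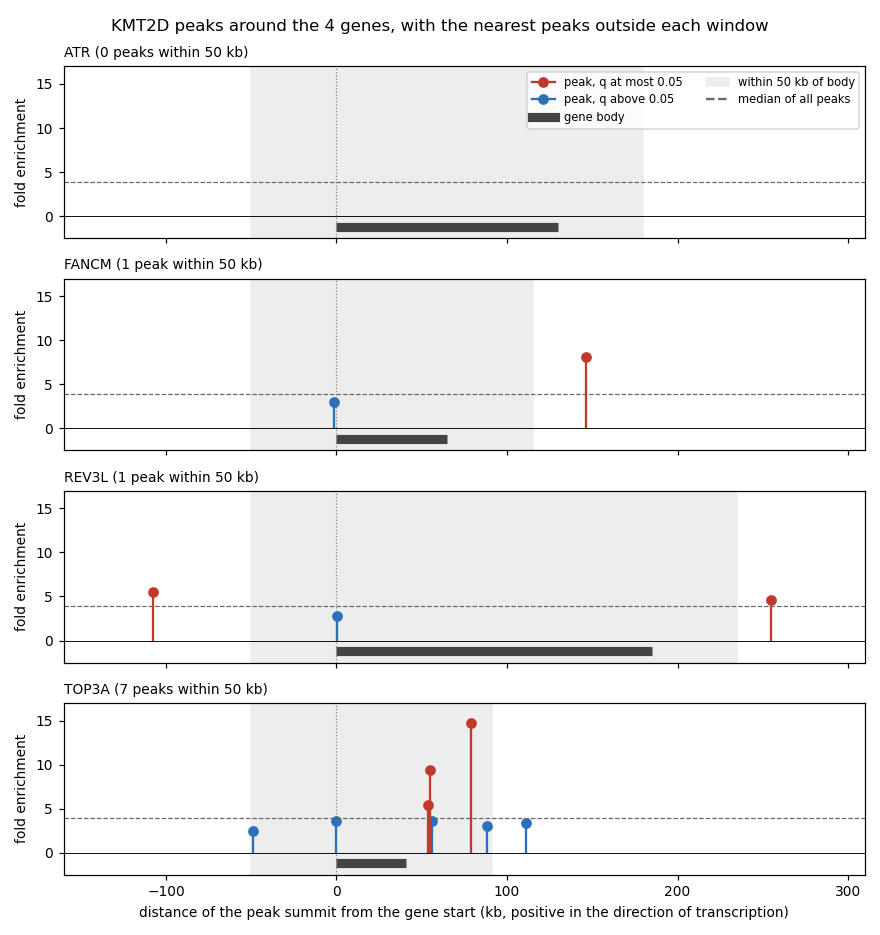
Peaks around ATR, FANCM, REV3L and TOP3A. The horizontal axis is the distance of each summit from the gene start in kb, positive in the direction of transcription, and the vertical axis is the fold enrichment at the summit. Red peaks have a q-value of at most 0.05 and blue peaks a higher one. The dark bar is the gene body, the grey band reaches 50 kb beyond it, and the dashed line is the list's median fold enrichment of 3.93. The nearest peaks outside the band are drawn where they fall on the axis. The 3 peaks with a summit within 2 kb of a gene start are all blue, and the band of ATR is empty.

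A summit within 2 kb of the start as given, here called a start peak, was listed at FANCM, REV3L and TOP3A and not at ATR. The FANCM peak lay wholly before the start and ended 1.3 kb from it. Each of the 3 start peaks was below the list's median in fold enrichment, but not beyond counting error. Fold enrichment was 3.56 at TOP3A, 3.01 at FANCM and 2.74 at REV3L, against a median of 3.93 over all 13808 peaks (interquartile range 3.139 to 5.388). The intervals for counting error, with the local background taken as known, all included this median. They were 2.28 to 5.42 at TOP3A, 2.1 to 4.21 at FANCM and 1.78 to 4.1 at REV3L. The deposited q-value was 0.112 at FANCM, 0.217 at TOP3A and 1 at REV3L, so that 0 of the 3 start peaks passed a q-value limit of 0.05. In the whole list 58.5% of peaks passed it, and 14.2% had a q-value of 1. Of all 9 peaks near the genes 3 passed the limit, and the same 3 passed a limit of 0.01, which 47.7% of the list did. All 3 belonged to the TOP3A window, beyond the 3′ end of the gene. Because the list was called at a p-value of 0.01, peaks with a high q-value are part of it.

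At ATR, the kinase at the head of the pathway, no summit lay within 50 kb of the gene body (chromosome 3 positions 142168000 to 142298000). The nearest summits were 346 kb beyond the start and 509 kb beyond the 3′ end, which left 985 kb between them without a peak. The first of these peaks was weak, with a fold enrichment of 2.84, 13 fragments over its summit and a q-value of 1. The other, at positions 141659089 to 141659441, had a fold enrichment of 4.08 and 51 fragments. The local control level there was 3.65 times that of the genome as a whole, or 4 control fragments against 1.1. Gaps this long made up 672 of the 13113 gaps between neighbouring peaks (5.12%), but they covered 58.2% of the span of chromosomes 1 to 22 and X. Of 12714 consecutive windows of 230 kb, the length examined at ATR, 66.0% held no peak. An empty window of this size was therefore the more common case along the chromosomes. These windows, like those used for the other genes, were laid without regard to genes. Their shares do not say how often a window around a gene holds a peak.

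What the list could hold at ATR depends on depth and on the local background. The ChIP library had 2.63 times the coverage of the control, and the genome-wide background gave 2.88 ChIP fragments at a position. With that background 11 fragments were needed to reach a p-value of 0.01, and 11 was also the smallest number seen at the 5713 peaks whose local background was at the genome-wide level. The lowest fold enrichment among them was 2.47. The local background at ATR itself is not given by a list without a peak there, so no limit in fold enrichment applies to ATR. Occupancy there is not shown to be absent. The study described a strong KMT2D peak around the ATR start in its ChIP-seq signal, and KMT2D at the promoter by quantitative PCR after ChIP. It states 13808 KMT2D peaks, the number in the list used here, yet this list holds none within 50 kb of ATR. Why the list and the reported signal differ was not tested. In the GRCh38 annotation PLS1, an actin-bundling protein gene, lies head to head with ATR, and XRN1, an exoribonuclease gene, lies beyond its 3′ end, and the window around ATR can reach into both.

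At FANCM the single peak lay upstream of the gene, at chromosome 14 positions 45603484 to 45603713. Its summit was 1.4 kb before the start (45605000, given to the nearest 1 kb), and the peak ended 1.3 kb before it. The peak was narrow, at 230 bp, wider than 20.8% of peaks. It held the most ChIP fragments of the 3 start peaks, 29 over the summit (95% Poisson interval 19.4 to 41.6). This was more than the list's median of 25. Its fold enrichment of 3.01 was nevertheless higher than that of only 19.5% of peaks. The local background at this summit was 2.74 times the genome-wide level, a level that 15.6% of all peaks reached. In control fragments this was 3 against 1.1, so the rise rests on few fragments. With the genome-wide background in place of the local one, the 29 ChIP fragments would give a fold enrichment of 5.74. Whether the control was raised here beyond counting error, and by what, was not tested.

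FKBP3, a peptidyl-prolyl isomerase gene, lies upstream of FANCM and is transcribed away from it, and the list does not tie the peak before the FANCM start to either gene. The distance of the peak from FKBP3 was not measured, since the annotation is of another build. PRPF39, a splicing factor gene, lies farther upstream. The next peaks lay outside the 50 kb limit. On the far side of the gene, 81.2 kb beyond the 3′ end, a peak of 480 bp had a fold enrichment of 8.14, 58 fragments and a q-value of 1.59e-13, and it exceeded 91.5% of the list in fold enrichment. In the other direction, 238.8 kb before the start, a peak had a fold enrichment of 3.69 and 19 fragments. Whether either of these peaks lies at a distal enhancer that the study described for FANCM was not tested. Within 50 kb, by contrast, the peak before the start was the only one, and its nearest neighbour was 147.7 kb away, farther than for 91.2% of peaks. At least 1 peak was found in 28.1% of 17726 consecutive windows of the same length, 165 kb.

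At REV3L the single peak spanned the start of the gene as given to the nearest 1 kb (111805000), at chromosome 6 positions 111804514 to 111805385. It was the weakest of the 3 start peaks in fold enrichment, with 2.74, which exceeded 11.8% of the list. It was also wide, at 872 bp, and 7.87% of all peaks were wider. Its summit lay 32 bp from the left edge, that is, at the end of the peak that lies inside the gene. There were 19 fragments over this summit (11.4 to 29.7). The local background was 1.83 times the genome-wide level, a level that 33.4% of peaks reached. In control fragments this was 2 against 1.1, again a small count. Over the genome-wide background the 19 ChIP fragments would give a fold enrichment of 3.93, equal to the list's median at this rounding. In the GRCh38 annotation the antisense RNA gene TRAF3IP2-AS1 overlaps the start of REV3L on the opposite strand, so the peak cannot be given to one of them.

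No other summit lay in the REV3L body of 185 kb or within 50 kb of it. Outside that limit the nearest peak was 70.0 kb beyond the 3′ end, with a fold enrichment of 4.64, 23 fragments and a q-value of 0.0059. The next lay 107.8 kb before the start, with a fold enrichment of 5.54 and 29 fragments. Both had a higher fold enrichment than the start peak, and both passed the q-value limit of 0.05. Whether either of them lies at a distal enhancer that the study described for REV3L was not tested. MFSD4B, a membrane transporter gene, lies beyond the 3′ end of REV3L. At least 1 peak was found in 37.9% of 10261 consecutive windows of 285 kb.

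TOP3A had the most peaks, 7 in a window of 141 kb, and the strongest of them lay outside the gene. The peak at the start, chromosome 17 positions 18217813 to 18218261, spanned the start as given to the nearest 1 kb (18218000). Rounding to 1 kb is coarser than this peak of 449 bp, so whether it spans the start itself was not settled. The peak had a fold enrichment of 3.56 with 17 fragments over the summit (9.9 to 27.2). Its local background was at the genome-wide level of 1.1 control fragments, against 3 at FANCM and 2 at REV3L. Its nearest neighbour was 48.9 kb away. SMCR8, whose product forms a complex with C9orf72, lies head to head with TOP3A, and the list does not tie the peak to either gene.

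The other peaks of the TOP3A window lay mostly beyond the 3′ end, where 5 summits stood between 12.4 and 47.3 kb from the gene body. The body of TOP3A is 41 kb in the bounds used and 43.6 kb in GENCODE 44, a difference of 2.6 kb at an end that was not determined, whereas the lengths of the other 3 genes were equal. Distances from the ends of TOP3A are therefore uncertain by up to this amount, which exceeds the 2 kb allowed for a start peak. The strongest, at positions 18138907 to 18139643, had a fold enrichment of 14.77, higher than 99.3% of the list, with 86 fragments (68.8 to 106.0) and a q-value of 2.48e-29. The next, at positions 18162603 to 18163309, had a fold enrichment of 9.35 and 49 fragments with a q-value of 3.44e-13. It stood in a group of 3 whose summits were 1.2 and 1.5 kb apart. Its neighbours in the group had a fold enrichment of 3.64 (21 fragments, q-value 0.217) and 5.38 (27 fragments, q-value 0.000101). The last of the 5, 9.6 kb from the strongest, had a fold enrichment of 3.02 with 14 fragments and a q-value of 0.994.

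The remaining peak lay 48.9 kb before the start of TOP3A, just inside the limit, with the lowest fold enrichment of the 9, 2.48, and 12 fragments. Just outside the limit, 70.2 kb beyond the 3′ end, a peak had a fold enrichment of 3.38 and 16 fragments. In the GRCh38 annotation 3 protein-coding genes lie beyond the 3′ end of TOP3A within 50 kb, namely LLGL1, a cell polarity scaffold, FLII, an actin-binding protein, and MIEF2, a factor of mitochondrial fission. SHMT1, an enzyme of one-carbon metabolism, lies on the other side. The stronger peaks can therefore belong to the promoters or enhancers of these genes, and the list does not tie them to TOP3A.

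**Figure D2:**
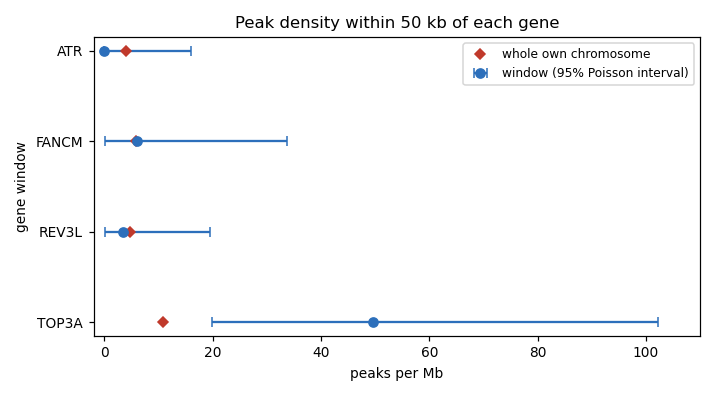
Peaks per Mb within 50 kb of each gene (points, with exact 95% Poisson intervals) beside the density of the whole chromosome that carries the gene (diamonds). The interval of TOP3A lies above its chromosome, and those of ATR, FANCM and REV3L include theirs.

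The number of peaks per window was compared with the rest of the list. Together the 4 windows held 11.0 peaks per Mb, 2.44 times the density of the rest of chromosomes 1 to 22 and X (exact 95% interval 1.12 to 4.64). TOP3A accounted for this. Its window held 49.6 peaks per Mb, 11.1 times the rest (4.45 to 22.8), while the windows of the other 3 genes together held 2 peaks in 680 kb, a ratio of 0.655 (0.0794 to 2.37). Chromosome 17 is dense, with 10.8 peaks per Mb, and against the rest of this chromosome the ratio at TOP3A was 4.63 (1.86 to 9.53). At least 7 peaks were found in 1.46% of consecutive windows of 141 kb over all these chromosomes and in 5.39% of those on chromosome 17. The ratio to the own chromosome was 1.03 (0.0262 to 5.76) at FANCM and 0.759 (0.0192 to 4.23) at REV3L, so neither differed from its chromosome beyond counting error. It was 0 at ATR, with an upper bound of 3.96. Peaks that neighbour each other are not independent, so these intervals are too narrow where peaks gather in groups. The study also showed these genes as examples with KMT2D peaks in its own ChIP-seq. The ratios therefore describe the loci and do not test an enrichment at FA genes.

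**Figure D3:**
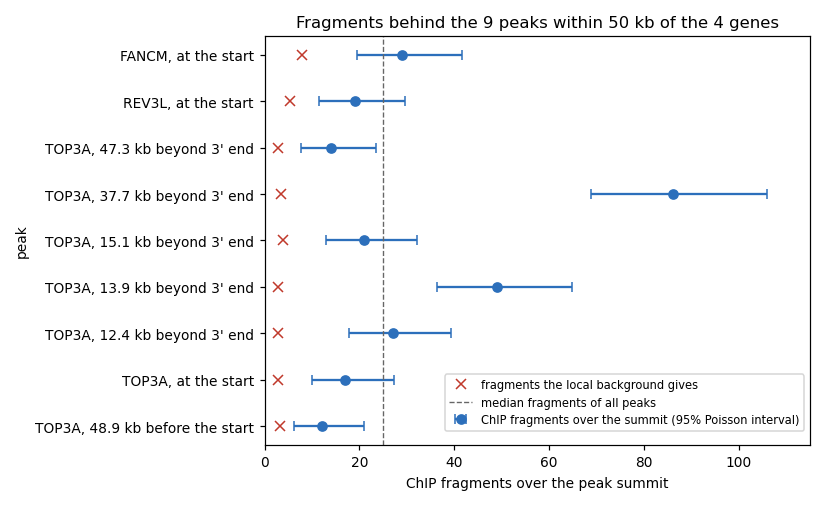
ChIP fragments over the summit of each of the 9 peaks (points, with exact 95% Poisson intervals), the number that the local background gives at that summit (crosses) and the median of all peaks, 25 fragments (dashed line). The intervals of the 3 start peaks overlap, and the strongest TOP3A peak, with 86 fragments, lies clear of them.

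The order of the start peaks by fragments was FANCM with 29, REV3L with 19 and TOP3A with 17. Neighbours in this order did not differ beyond counting error. The ratio of FANCM to REV3L was 1.53 (exact conditional 95% interval 0.827 to 2.88) and that of REV3L to TOP3A was 1.12 (0.55 to 2.29). For the ends of the order, FANCM against TOP3A, it was 1.71 (0.907 to 3.31), an interval that also included 1. By fold enrichment TOP3A came first, with 3.56 (2.28 to 5.42), followed by FANCM with 3.01 (2.1 to 4.21) and REV3L with 2.74 (1.78 to 4.1). These intervals take the local background as known and overlap throughout. Above the local background there were 21.1 fragments at FANCM, 14.1 at TOP3A and 13.7 at REV3L. The order thus depended on the measure, and the list does not separate the 3 starts. Within the TOP3A window the fragments ran from 12 to 86, and the start peak, with 17, held fewer than 4 of the other 6 peaks. No test was made between these peaks, since the strongest were picked by the same values.

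**Figure D4:**
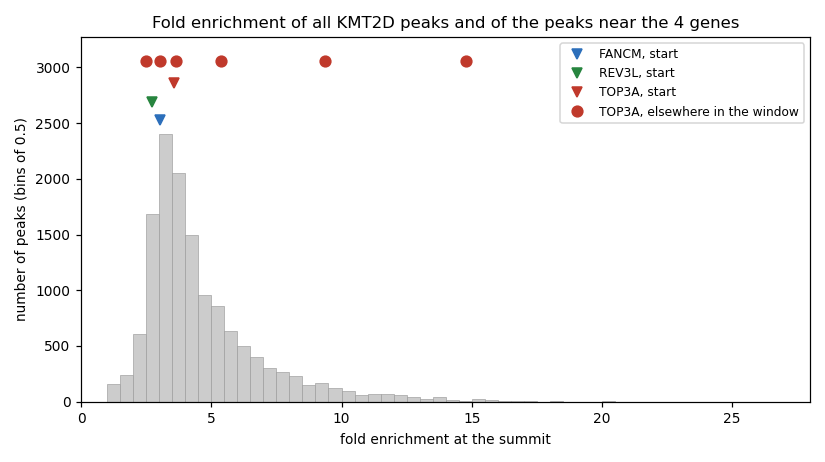
Fold enrichment at the summit of all 13808 peaks (grey bars, number of peaks in bins of 0.5). The peaks near the genes are marked above by gene, with triangles for summits within 2 kb of a gene start and circles elsewhere in the window. The triangles lie between 2.74 and 3.56, and 3 TOP3A circles lie to the right of the list's median of 3.93.

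Across the 9 peaks, fold enrichment had a median of 3.56 and ranged from 2.48 to 14.8, while the rest of the list had a median of 3.93. There were 6 peaks below the list's median. Fragments over the summit had a median of 21, against 25 in the rest. The peaks near the genes were somewhat wider, with a median of 449 bp against 341 bp. No test was made of these medians, because peaks of 1 library are not replicates and 7 of the 9 share the surroundings of a single gene.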

How the data were processed

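KMT2D ChIP-seq peaks of 1 library were used (KMT2D-WT cells, 6 hours without glucose). The other 13 of 14 samples were not analysed here. According to the methods, the authors aligned reads to hg19 with Bowtie2, retained unique alignments and ran MACS2 at a p-value limit of 0.01. The control is not named, and pooling is not mentioned. In the deposited list, fold enrichment is the scaled pileup over the local background at the summit (pseudocount 1), the deposited −log10 columns give p-value and q-value, and the deposited score is a multiple of the first and was not used. Gene bounds, in hg19 and rounded to 1 kb, were part of the rule that chose the members. The genes and motifs were chosen with earlier results of these data known. A start peak had its summit within 2 kb of the gene's 5′ bound. Every peak near the 4 genes and the closest peak outside each window were named.

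The ChIP fragments at a summit, and the local level of the control, were recovered from fold enrichment and p-value together, since fragments are whole. With 1 ChIP fragment weighing 0.381 control fragments and a genome-wide background of 1.1 control fragments, all 13808 peaks were met within 0.02 in −log10 p, and each of the 9 members had exactly 1 solution. The procedure was tested on simulated data. Intervals are exact for Poisson counts at the 95% level and cover counting error only. At summits they do not allow for the choice of the highest point of a peak. Nor do they allow for the p-value limit that each listed peak had passed. Consecutive windows were laid from the first peak of each chromosome to its last, without regard to genes. Strand, neighbouring genes (GENCODE 44) and promoters (RefSeq, all 4 genes matched) are from GRCh38, and no coordinate was converted. A further list of FA genes was not analysed here because it needs an hg19 annotation. SCC23 identity was not checked against marker genes. Alternatives were other windows, stricter q-values, the own chromosome and leaving out TOP3A. Scripts ran in Python 3.11.15 (scipy 1.17.1 for intervals, pandas 2.3.3 for tables, numpy 2.4.6, with plots from matplotlib 3.10.9).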

Additional observations from a re-analysis of the deposited data

How the results depend on the processing

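The alternatives gave 24 values, of which 14 lay close to the reported one, 9 moved and 1 changed direction. Close meant within 1.5 times for counts and inside the 95% interval otherwise. For the median fold enrichment this interval, 2.28 to 5.42, was that of the TOP3A start peak, whose value is the median. It does not measure the spread of a median, so closeness there is a convention only. The number of peaks near the genes was 9 and became 14 with windows of 100 kb, 3 under a q-value limit of 0.05 and 3 under 0.01, and 2 without the TOP3A window. Genes with a start peak numbered 3 and became 0 under both q-value limits. The density ratio of 2.44 turned to 0.655 (0.0794 to 2.37) without the TOP3A window, an alternative chosen after seeing the data, so the excess rests on that locus. Its interval also included 1 against the own chromosomes, at 1.9 (0.87 to 3.61), with windows of 20 kb, at 2.3 (0.845 to 5.01), and under the q-value limits of 0.05, at 1.38 (0.285 to 4.05), and 0.01, at 1.7 (0.35 to 4.96). With windows of 100 kb it was 2.56 (1.4 to 4.29). The median fold enrichment of 3.56 became 9.35 under the limit of 0.05 and 9.35 under 0.01, where 3 TOP3A peaks are left. At FANCM, the fold enrichment of 3.01 read with the genome-wide background alone would correspond to 13.9 fragments instead of 29, by construction. With summits within 1 kb of a start as given, 2 genes kept a start peak, REV3L and TOP3A. No paired analysis was possible because 1 library was analysed, and leaving out a replicate was not possible for the same reason. With 1 library and 12 to 86 fragments a summit, whether the weaker peaks would recur was not tested.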
